A study of Macaca mulatta with 4 samples.

Results

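The 9 genes described here encode the receptor for interleukin-2 (IL2RA, IL2RB and IL2RG), the kinases and transcription factors that carry its signal (JAK1, JAK3, STAT5A and STAT5B), and both receptors for tumor necrosis factor (TNFRSF1A and TNFRSF1B). They were taken by gene symbol, with earlier results of these data known, and all 9 had a row among the 15354 gene rows of the deposited tables. The study put human pluripotent stem cell-derived islets into rhesus macaques and sequenced RNA of single peripheral blood mononuclear cells to follow the recipient's immune response. Each of 4 groups had 1 library: Pre-IS, from blood drawn before immunosuppression began; Post-IS, from blood drawn under it but ahead of the islets; and 4 wpt and 8 wpt, named for the weeks since they were given. The labels name neither the immunosuppressive drugs nor the animals, and do not say how treatment went on after the transplant, so drug, animal and sampling day cannot be told apart from the group.

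Interleukin-2 is bound by a receptor of up to 3 chains. The alpha chain raises the affinity, while the beta and common gamma chains reach into the cell and carry the kinases JAK1 and JAK3. These phosphorylate STAT5, which moves to the nucleus and switches on survival, feedback and growth genes. Natural killer (NK) cells and memory T cells carry the beta and gamma chains and answer interleukin-15 through the same pair, and regulatory T cells carry the alpha chain at rest. Tumor necrosis factor is read by a receptor with a death domain, TNFRSF1A, and by a receptor without one, TNFRSF1B, and both recruit adaptors that lead to NF-kB.

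The tables held 1928, 603, 1882 and 2580 cells at Pre-IS, Post-IS, 4 wpt and 8 wpt, with median depths of 1563, 1168, 3551 and 1877 UMIs per cell. A UMI (unique molecular identifier) stands for 1 captured RNA molecule, and pairs of libraries shared 0 to 12 cell barcodes. Cells are grouped by the authors' labels, which are taken as given, and levels are UMIs of a gene per 1000000 UMIs summed over the cells of that class in that library (CPM). The 6 T cell markers summed to 2755 to 3423 CPM in cells labelled T and to 512 to 651 CPM in cells labelled NK. The 6 NK markers summed to 4897 to 7072 CPM in NK cells, while in T cells they reached 1530 CPM at Pre-IS, 619 at Post-IS, 950 at 4 wpt and 1755 at 8 wpt, with NCAM1 at 0 in all 4. The 6 monocyte markers summed to 21110 to 23660 CPM in CD14+ monocytes and to 1588 to 3179 CPM in MS4A7+ monocytes, where the nonclassical markers summed to 2959 to 3728 CPM against 246 to 522 CPM in CD14+ monocytes. The Post-IS library held 115 T cells, 9 NK cells and 12 B cells, so it is compared between libraries only in T cells and in both monocyte classes. With 1 library per group there is no test between groups: intervals are exact 95% intervals that cover counting error only, in single cells and UMIs that share a library. In a class sum, fewer cells that express a gene cannot be told apart from less RNA per cell. Differences between classes are descriptions, since the labels may rest on the same counts.

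**Figure D1:**
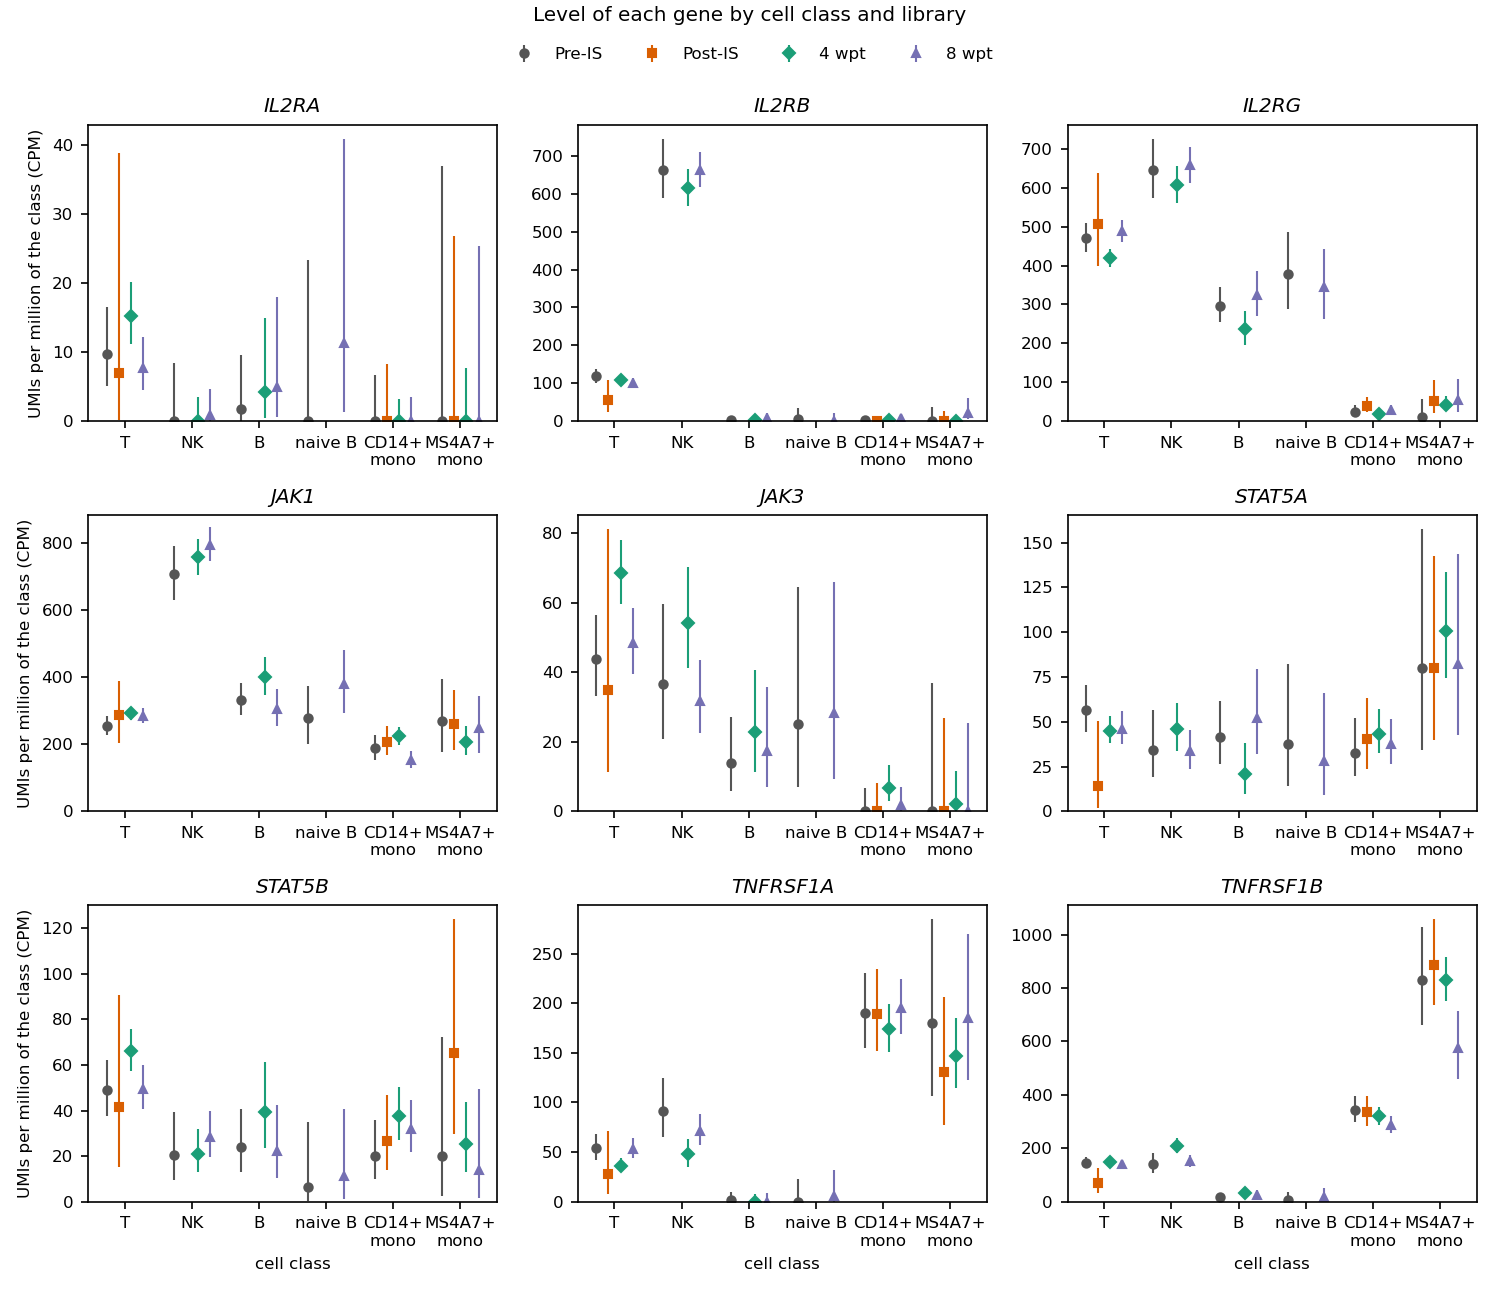
Level of each of the 9 genes, in CPM (linear axis with its own range in each panel), by cell class and library; points are class sums of at least 50 cells and bars are exact Poisson 95% intervals. IL2RB and JAK1 stand highest in NK cells, JAK3 in T and NK cells, and both TNF receptors in monocytes, with TNFRSF1A next to 0 in B cells.

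IL2RA, the alpha chain that gives the receptor its high affinity, had the fewest UMIs of the 9, 90 over all 6993 cells, and most of them lay in T cells. T cells held 13, 1, 48 and 17 UMIs at Pre-IS, Post-IS, 4 wpt and 8 wpt. That is 9.63 CPM (interval 5.13 to 16.5), 6.96 (0.176 to 38.8), 15.1 (11.2 to 20.1) and 7.61 (4.43 to 12.2). The 4 wpt T cells stood highest: 8 wpt was 1.99-fold lower than 4 wpt (1.12 to 3.69), though the 4 wpt CPM interval overlapped those of the other 3 libraries. Of the 48 UMIs at 4 wpt, 9 lay in 1 T cell, and the intervals treat UMIs as independent. IL2RA was not seen in any CD14+ or MS4A7+ monocyte of any library, and NK cells held 1 UMI in all, at 8 wpt. The zeros in NK cells allow up to 6.88 CPM at Pre-IS and 2.86 CPM at 4 wpt, at a limit of 3 counts. B cells stood at 1.73, 4.15 and 4.95 CPM at Pre-IS, 4 wpt and 8 wpt, and naive B cells at 11.3 CPM (1.37 to 40.8) at 8 wpt. Each of these intervals overlapped that of T cells in the same library.

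Cells with IL2RA also differed from other T cells in what else they held. At 4 wpt, 6 of 28 T cells with IL2RA (21.4%, 8.30% to 41.0%) also held FOXP3, the transcription factor of regulatory T cells, against 5 of 861 T cells without it (0.581%). At 8 wpt the counts were 4 of 15 (26.7%, 7.79% to 55.1%) against 2 of 1159 (0.173%). CTLA4, an inhibitory receptor that regulatory T cells carry, was found in 8 of 28 T cells with IL2RA and 24 of 861 without at 4 wpt. FOXP3 and CTLA4 were thus seen more often in IL2RA cells in both post-transplant libraries. IKZF2, another regulatory T cell marker, was found in 6 of 28 against 106 of 861 at 4 wpt (21.4% and 12.3%). At 8 wpt it was found in 3 of 15 against 68 of 1159 (20% and 5.87%), and its intervals overlapped in both libraries. Median depths were 3516 UMIs in cells with IL2RA and 3628 in cells without at 4 wpt, and 2616 and 1804 UMIs at 8 wpt. At Pre-IS the counts for FOXP3 were 1 of 10 and 6 of 831, too few to place.

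IL2RB, the beta chain that IL-2 and IL-15 share, was above all an NK cell transcript. NK cells stood at 665 CPM (590 to 746) at Pre-IS, 616 (569 to 665) at 4 wpt and 664 (619 to 712) at 8 wpt, and the 9 Post-IS NK cells held 20 UMIs. T cells stood at 118.5 CPM (101 to 138) at Pre-IS, 55.7 (24.0 to 110) at Post-IS, 108.5 (97.3 to 121) at 4 wpt and 99.8 (87.1 to 114) at 8 wpt. Within a library, NK cells were 5.61-fold (4.61 to 6.85), 5.68-fold (4.97 to 6.49) and 6.66-fold (5.73 to 7.76) above T cells at Pre-IS, 4 wpt and 8 wpt. The NK intervals of those 3 libraries overlapped one another and lay clear of every other class of at least 50 cells. In T cells the Post-IS library was lowest, 2.13-fold lower than Pre-IS (1.06 to 5.02) on 8 UMIs against 160. B cells and CD14+ monocytes held 0 to 8 UMIs per library, or at most 7.70 CPM.

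IL2RG, the gamma chain shared by the receptors of several interleukins, was spread over all lymphocytes. It stood at 646, 606 and 658 CPM in NK cells at Pre-IS, 4 wpt and 8 wpt. T cells stood at 471 CPM (435 to 509) at Pre-IS, 508 (398 to 639) at Post-IS, 419 (397 to 442) at 4 wpt and 488 (460 to 518) at 8 wpt. B cells were lower, at 297, 236 and 325 CPM at Pre-IS, 4 wpt and 8 wpt, and T cells were 1.59-fold (1.34 to 1.89), 1.78-fold (1.47 to 2.17) and 1.51-fold (1.25 to 1.82) above them. The T cell range across libraries was narrow, 419 to 508 CPM. The Post-IS interval overlapped all the others, while the 4 wpt interval lay wholly below that of 8 wpt. CD14+ monocytes carried little, with 23.7, 37.9, 17.9 and 28.9 CPM at Pre-IS, Post-IS, 4 wpt and 8 wpt, and T cells were 13.4-fold to 23.5-fold above them. MS4A7+ monocytes held 1, 7, 20 and 8 UMIs in the same order.

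Many NK cells held the beta and gamma chains together without a UMI of the alpha chain. In 43.2% of NK cells at Pre-IS, 77.0% at 4 wpt and 42.9% at 8 wpt, UMIs of IL2RB and IL2RG were found and none of IL2RA. The higher share at 4 wpt went with the deeper cells of that library, whose median NK depth was 3943 UMIs, against 1614 at Pre-IS and 1758 at 8 wpt. IL2RB alone shows the same: 65.0%, 87.4% and 63.3% of NK cells had a UMI at Pre-IS, 4 wpt and 8 wpt, but 49.4%, 44.5% and 45.7% once each cell was thinned to 1000 UMIs. After thinning the 3 intervals overlapped. In CD14+ monocytes, which should hold little of the gene, 0.391%, 0.641% and 1.16% of cells had a UMI at Pre-IS, 4 wpt and 8 wpt unthinned and 0%, 0.353% and 0.599% thinned, at median depths of 2058, 3190 and 2854 UMIs. All 3 chains were seen together in 2, 0, 10 and 4 T cells at Pre-IS, Post-IS, 4 wpt and 8 wpt, and in 1 NK cell, at 8 wpt.

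Shares of T cells with a UMI moved with depth in the same way. IL2RG was found in 51.3%, 43.5%, 70.5% and 56.4% of T cells at Pre-IS, Post-IS, 4 wpt and 8 wpt, and in 37.2%, 31.8%, 36.3% and 37.6% of thinned ones. JAK3 was found in 6.54%, 4.35%, 21.8% and 8.69% of T cells, and in 4.65%, 4.71%, 6.79% and 4.10% of thinned ones. The thinned 4 wpt share of JAK3 was the highest of the 4 and its interval (5.20% to 8.69%) overlapped the others. JAK3 in thinned CD14+ monocytes was found in at most 0.299% of cells.

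**Figure D2:**
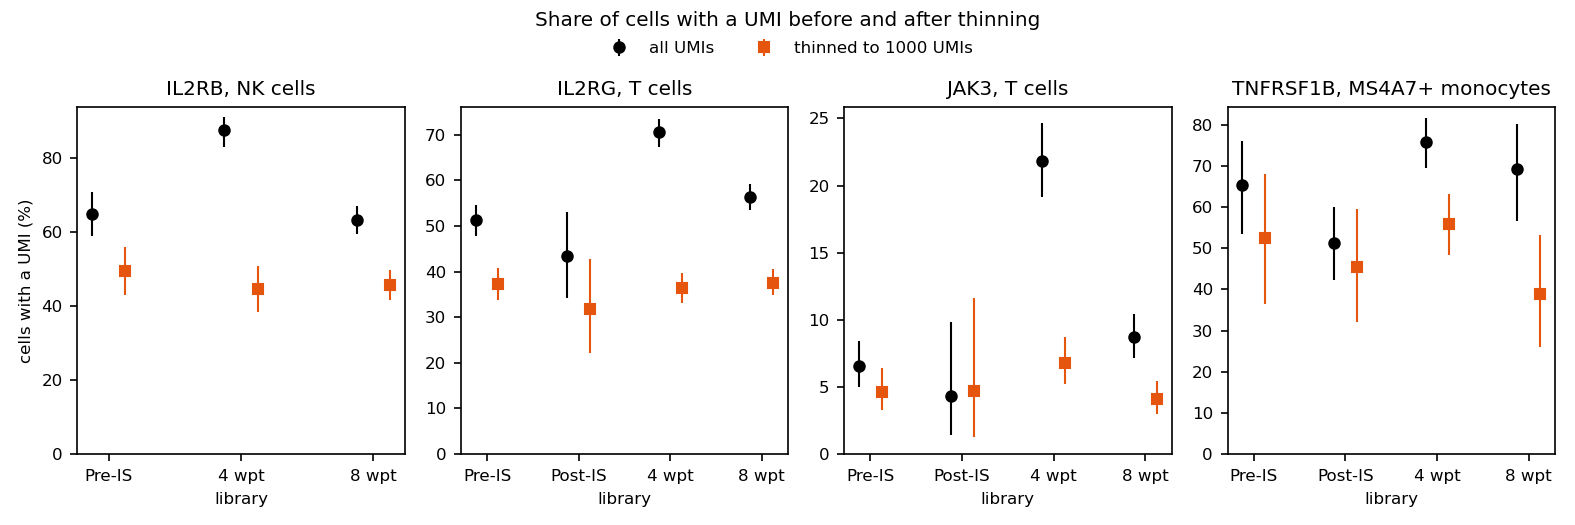
Share of cells with at least 1 UMI (%, vertical axis from 0) for 4 gene and class pairs by library, with all UMIs (black circles) and after thinning each cell to 1000 UMIs (orange squares); bars are exact Clopper-Pearson 95% intervals. The raised 4 wpt shares of IL2RB in NK cells (87.4%) and IL2RG in T cells (70.5%) are 44.5% and 36.3% after thinning, with intervals that overlap the other libraries; JAK3 at 4 wpt is 21.8% before and 6.79% after.

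JAK1, the kinase that sits on the beta chain and on many other cytokine receptors, was found in every class and was highest in NK cells. NK cells stood at 706 CPM (629 to 789) at Pre-IS, 756 (704 to 810) at 4 wpt and 794 (744 to 846) at 8 wpt. T cells stood at 254, 285, 291 and 283 CPM at Pre-IS, Post-IS, 4 wpt and 8 wpt. NK cells were 2.78-fold (2.37 to 3.25), 2.59-fold (2.36 to 2.86) and 2.80-fold (2.53 to 3.104) above T cells at Pre-IS, 4 wpt and 8 wpt, and the NK intervals were clear of all other classes of at least 50 cells. B cells held 331, 400 and 305 CPM in those 3 libraries. CD14+ monocytes held 188, 207, 224 and 153 CPM over the 4 libraries, the 8 wpt value being 1.46-fold lower than at 4 wpt. Unlike IL2RB, JAK1 in T cells did not dip at Post-IS: its ratio to Pre-IS there was 1.12 (0.792 to 1.55).

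JAK3, the kinase that binds the common gamma chain, followed the lymphocytes and was next to absent from monocytes. T cells held 43.7 CPM (33.3 to 56.4) at Pre-IS, 34.8 (11.3 to 81.2) at Post-IS, 68.4 (59.6 to 78.2) at 4 wpt and 48.3 (39.7 to 58.4) at 8 wpt. The 4 wpt T cells stood highest, 1.57-fold above Pre-IS (1.17 to 2.13) on 217 UMIs against 59, and above 8 wpt, whose ratio to 4 wpt was 0.706. NK cells held 36.7, 54.3 and 31.8 CPM at Pre-IS, 4 wpt and 8 wpt and also stood highest at 4 wpt, with 8 wpt 1.71-fold lower than 4 wpt (1.11 to 2.65). In thinned T cells the log2 ratio of 4 wpt to Pre-IS was 0.56, just inside 1.5-fold, against 0.65 unthinned. B cells held 13.8, 22.8 and 17.3 CPM, and T cells were 2.79-fold to 3.17-fold above them. CD14+ monocytes held 0, 0, 8 and 2 UMIs at Pre-IS, Post-IS, 4 wpt and 8 wpt, so the zeros allow up to 5.47 CPM at Pre-IS and 6.69 at Post-IS.

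STAT5A and STAT5B, the transcription factors that the kinases activate, are close in sequence, and how reads that match both were counted is not given in the sources used here. STAT5A was highest in MS4A7+ monocytes, with 80.0 CPM (34.5 to 158) at Pre-IS, 79.8 (39.8 to 143) at Post-IS, 101 (74.2 to 134) at 4 wpt and 82.4 (42.6 to 144) at 8 wpt. These intervals overlapped those of T cells at Pre-IS, Post-IS and 8 wpt. Only at 4 wpt did the interval lie clear of the other classes of at least 50 cells in that library. CD14+ monocytes held 32.8, 40.1, 43.4 and 37.5 CPM, and MS4A7+ monocytes were 2.44-fold, 1.99-fold, 2.32-fold and 2.20-fold above them, with intervals that exclude 1 at 4 wpt (1.53 to 3.51) and 8 wpt (1.05 to 4.28). All 4 ratios ran the same way. STAT5B did not share this: MS4A7+ monocytes held 19.99, 65.3, 25.2 and 13.7 CPM on 2 to 12 UMIs, and the order against CD14+ monocytes changed from library to library.

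In T cells STAT5A stood at 56.3 CPM (44.4 to 70.5) at Pre-IS, 13.9 (1.69 to 50.3) at Post-IS, 45.1 (38.0 to 53.1) at 4 wpt and 46.1 (37.6 to 55.9) at 8 wpt. The Post-IS value rests on 2 UMIs in 2 cells and was 4.05-fold lower than Pre-IS (1.08 to 34.0). STAT5B in T cells stood at 48.9, 41.8, 66.2 and 49.7 CPM in the 4 libraries, with 4 wpt highest at 1.35 times Pre-IS and the 8 wpt ratio to 4 wpt at 0.750. T cells held more STAT5B than NK cells in each library with enough NK cells, by 2.37-fold (1.18 to 5.41) at Pre-IS, 3.16-fold (2.03 to 5.15) at 4 wpt and 1.75-fold (1.18 to 2.65) at 8 wpt. In B cells STAT5A stood at 52.0 CPM at 8 wpt and 20.7 at 4 wpt, a ratio of 2.51 (1.13 to 5.97) on 21 and 10 UMIs. B cells at Pre-IS, with 41.4 CPM, lay between them.

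TNFRSF1A, the TNF receptor with a death domain, was a monocyte gene with a lower level in NK and T cells. CD14+ monocytes stood at 190 CPM (155 to 230) at Pre-IS, 190 (151 to 234) at Post-IS, 174 (150 to 199) at 4 wpt and 195 (169 to 224) at 8 wpt, and all 4 intervals overlapped. MS4A7+ monocytes stood at 180, 131, 147 and 185 CPM and had ratios to CD14+ monocytes of 0.689 to 0.949, each with an interval that included 1. B cells held 1, 0 and 0 UMIs at Pre-IS, 4 wpt and 8 wpt, so the zeros allow up to 6.22 and 7.43 CPM. T cells stood at 54.1 CPM (42.4 to 67.99) at Pre-IS, 27.8 (7.58 to 71.3) at Post-IS, 36.3 (29.9 to 43.5) at 4 wpt and 53.3 (44.1 to 63.7) at 8 wpt. CD14+ monocytes were 3.51-fold to 6.81-fold above them.

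In NK cells TNFRSF1A was lowest at 4 wpt. It stood at 91.7 CPM (65.5 to 125) at Pre-IS, 47.7 (35.4 to 62.8) at 4 wpt and 71.1 (56.8 to 87.9) at 8 wpt. The 4 wpt level was 1.92-fold lower than Pre-IS (1.24 to 2.98), and the 8 wpt level was 1.49 times that of 4 wpt. Among the same 3 libraries T cells were also lowest at 4 wpt: their 4 wpt ratio to Pre-IS was 0.671, and their 8 wpt ratio to 4 wpt was 1.47. TNFRSF1B moved the other way in NK cells, with a 4 wpt ratio of 1.46 to Pre-IS.

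TNFRSF1B, the TNF receptor without a death domain, was highest in MS4A7+ monocytes. They stood at 830 CPM (661 to 1028) at Pre-IS, 885 (735 to 1057) at Post-IS, 831 (751 to 917) at 4 wpt and 577 (460 to 714) at 8 wpt. CD14+ monocytes stood at 345, 337, 320 and 288 CPM, and MS4A7+ monocytes were 2.41-fold (1.84 to 3.13), 2.63-fold (2.05 to 3.36), 2.60-fold (2.25 to 2.999) and 2.01-fold (1.56 to 2.56) above them. The 8 wpt MS4A7+ monocytes were lowest, 1.53-fold lower than Post-IS (1.15 to 2.05), with ratios of 0.695 to Pre-IS and 0.694 to 4 wpt. The log2 ratio of 8 wpt to Post-IS was -0.62, and under 4 other settings it was -0.42 to -0.58, inside 1.5-fold. T cell markers summed to 117 CPM in these cells at 8 wpt, with 4 of 6 above 0, and to 0 CPM at Post-IS, and NK markers summed to 151 CPM at 8 wpt and 29.0 CPM at Post-IS. At Pre-IS, Post-IS, 4 wpt and 8 wpt the monocyte markers summed to 2589, 2161, 1588 and 3179 CPM in these cells. The nonclassical markers summed to 3728, 2959, 3339 and 3673 CPM in the same order. The part of these markers in the result was not tested.

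NK cells held 142 CPM (109 to 182) of TNFRSF1B at Pre-IS, 208 (181 to 237) at 4 wpt and 152 (131 to 176) at 8 wpt. T cells held 146 CPM (126 to 168) at Pre-IS, 69.6 (33.4 to 128) at Post-IS, 150 (137 to 164) at 4 wpt and 141 (126 to 158) at 8 wpt. The Post-IS T cells were lowest, 2.10-fold lower than Pre-IS (1.12 to 4.44), while 4 wpt was 2.16-fold (1.16 to 4.53) and 8 wpt 2.03-fold (1.09 to 4.28) above Post-IS. The other 3 libraries overlapped one another. B cells held 17.3, 33.2 and 24.8 CPM at Pre-IS, 4 wpt and 8 wpt.

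**Figure D3:**
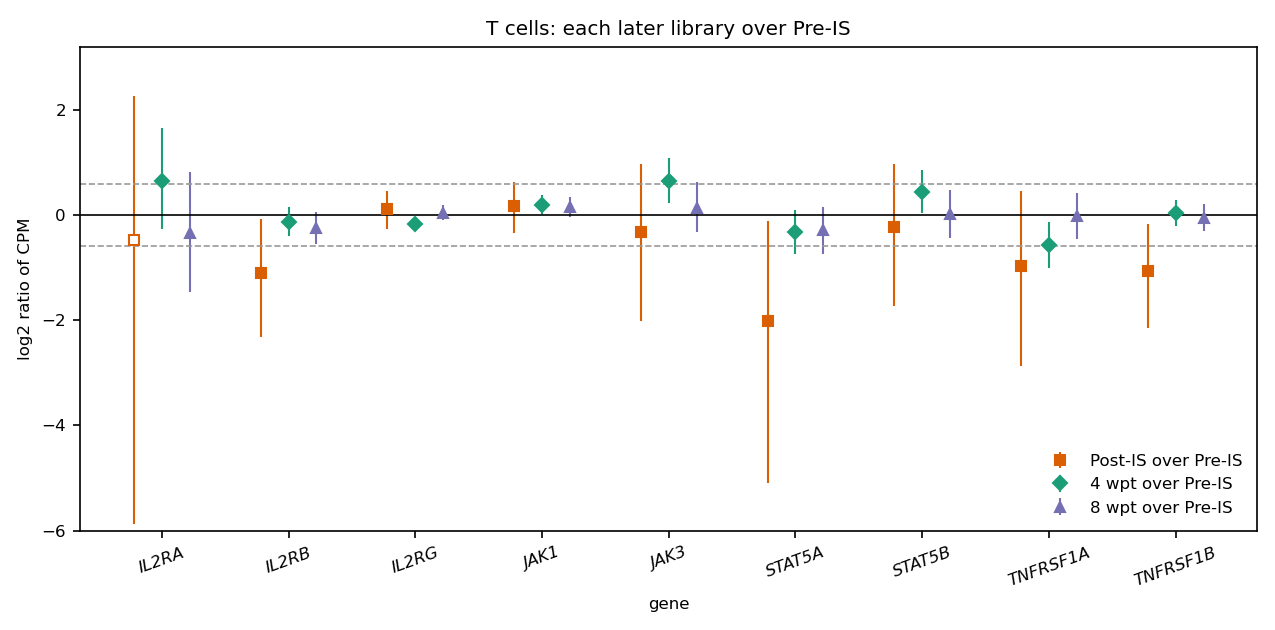
T cells: log2 ratio of CPM of each later library over Pre-IS for the 9 genes, with exact conditional binomial 95% intervals; dashed lines mark 1.5-fold either way and the open square is a gene with under 20 UMIs in both libraries together. At Post-IS the points of IL2RB, STAT5A, TNFRSF1A and TNFRSF1B lie below the lower line, and at 4 wpt those of JAK3 and IL2RA lie above the upper one.

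Counting across T cells, with a gene called measured at 20 or more UMIs over both libraries and apart at 1.5-fold or more, Post-IS over Pre-IS put 4 of 8 measured genes lower and 0 higher. Among all 6612 genes measured there, 25.4% were at least 1.5-fold lower. The median log2 ratio was -0.50 over the 8 and 0.00 over all genes. The 4 were IL2RB, STAT5A, TNFRSF1A and TNFRSF1B, and the interval of TNFRSF1A (0.727 to 7.32-fold lower) included 1. For 4 wpt over Pre-IS, JAK3 and IL2RA of 9 were higher, where 13.3% of all genes were, and the interval of IL2RA (0.838 to 3.16) included 1, with a log2 ratio of 0.65 that was 0.35 in thinned cells. For 8 wpt over Pre-IS none of 9 was apart, against 14.6% of all genes. For 4 wpt over Post-IS, 6 of 9 were higher against 23.6% of all genes, and for 8 wpt over Post-IS, 4 of 8 against 26%. These comparisons share the Post-IS library with the first. The 6 at 4 wpt were IL2RA, IL2RB, JAK3, STAT5A, STAT5B and TNFRSF1B. The Post-IS CPM intervals of IL2RA, JAK3 and STAT5B covered their 4 wpt values. IL2RA held 1 UMI at Post-IS and met the minimum only through 4 wpt. It was not measured for 8 wpt over Post-IS. For 8 wpt over 4 wpt, IL2RA alone of 9 was lower, against 8.53% of all genes.

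Over all classes compared, 5 of 17 measured gene and class pairs were apart for Post-IS over Pre-IS, a share near the 34.8% of all such pairs. It was 8 of 33 for 4 wpt over Pre-IS, against 26.4%, and 1 of 34 for 8 wpt over Pre-IS, against 20.7%. For 4 wpt over Post-IS it was 8 of 21 against 34.3%, for 8 wpt over Post-IS 5 of 18 against 34.7%, and for 8 wpt over 4 wpt 5 of 33 against 21.6%. For 8 wpt over Pre-IS the pair apart was STAT5B in CD14+ monocytes at 1.58-fold (0.780 to 3.47), and in thinned cells its log2 ratio was -0.0108 against 0.66. Thinned cells gave 4 pairs apart there and 5 for 4 wpt over Pre-IS, and weighting each cell equally gave 7 for 8 wpt over Pre-IS.

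The NK markers in T cells were lowest at Post-IS, as IL2RB and TNFRSF1B were. T cells were therefore also split by a UMI of NKG7, a cytotoxic granule protein of NK and effector T cells. The markers summed to 1530 CPM at Pre-IS, 950 at 4 wpt and 1755 at 8 wpt. IL2RB stood at 118.5, 108.5 and 99.8 CPM in the same order, and TNFRSF1B at 146, 150 and 141. The split was chosen after the values were seen. T cells with NKG7 made up 40.0% at Pre-IS, 16.5% at Post-IS (19 of 115 cells, 10.2% to 24.6%), 37.1% at 4 wpt and 49.7% at 8 wpt. In cells thinned to 1000 UMIs the shares were 36.0%, 12.9%, 28.5% and 45.0%, so Post-IS stood lowest either way. Unthinned, T cells with NKG7 held 35.6%, 16.8%, 36.0% and 44.4% of the T cell UMIs in the same order. The part of these shares in the T cell levels was not tested.

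IL2RB, TNFRSF1B and IL2RG differed between these T cells in each library. IL2RB stood at 252, 207, 216 and 183 CPM in T cells with NKG7 and at 44.9, 25.1, 48.3 and 33.0 CPM in those without, at Pre-IS, Post-IS, 4 wpt and 8 wpt. The ratio was 5.61 (3.88 to 8.27), 8.24 (1.60 to 53.1), 4.47 (3.52 to 5.71) and 5.55 (3.94 to 7.99). TNFRSF1B was 3.01-fold (2.23 to 4.07), 4.95-fold (1.14 to 21.5), 2.93-fold (2.42 to 3.54) and 4.16-fold (3.19 to 5.49) higher in cells with NKG7. TNFRSF1A was 2.91-fold, 2.23-fold and 2.47-fold higher at Pre-IS, 4 wpt and 8 wpt, and JAK1 was 1.74-fold, 1.28-fold and 1.52-fold higher. At Post-IS these genes could not be placed. JAK1 had a ratio of 1.02, with an interval (0.381 to 2.33) that covered its ratios at Pre-IS, 4 wpt and 8 wpt. TNFRSF1A held 0 UMIs in T cells with NKG7 and 4 in those without. That 0 rests on 19 cells and allows up to 124 CPM, above the 93.6 CPM of T cells with NKG7 at Pre-IS. IL2RG was higher in all 4 libraries, by 1.39-fold to 2.13-fold.

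IL2RA ran the other way, at 2.08, 6.14 and 1.01 CPM in T cells with NKG7 against 13.8, 20.2 and 12.9 CPM in those without, at Pre-IS, 4 wpt and 8 wpt. Its ratio had an interval that included 1 at Pre-IS and was 0.304 (0.115 to 0.684) at 4 wpt and 0.0782 (0.00186 to 0.503) at 8 wpt. At Post-IS the only IL2RA UMI lay in a T cell with NKG7, too few to place. For JAK3, STAT5A and STAT5B the ratio had an interval that included 1 in every library where it could be taken. T cells with NKG7 thus held more of the beta chain and of TNFRSF1B in all 4 libraries, and IL2RA UMIs numbered 1, 7 and 1 in T cells with NKG7 against 12, 41 and 16 in those without, at Pre-IS, 4 wpt and 8 wpt.

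**Figure D4:**
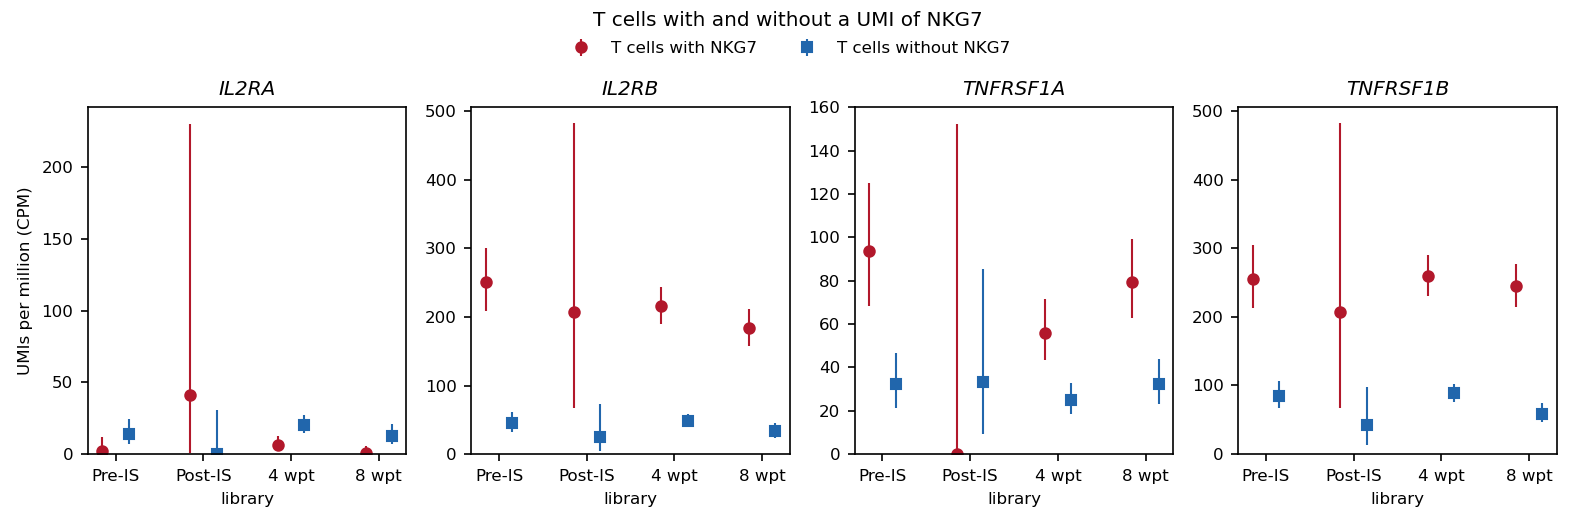
Level in CPM (linear axis with its own range in each panel) of 4 genes in T cells with (red circles, left) and without (blue squares, right) a UMI of NKG7, by library; bars are exact Poisson 95% intervals, wide at Post-IS where 19 T cells held NKG7. IL2RB and TNFRSF1B stand higher in cells with NKG7 in all 4 libraries, and IL2RA stands higher in cells without it at Pre-IS, 4 wpt and 8 wpt. At Post-IS the only IL2RA UMI lay in a cell with NKG7.

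Within each kind of T cell the comparison of libraries rests on few UMIs at Post-IS. In T cells with NKG7 the Post-IS over Pre-IS ratio was 0.822 (0.262 to 1.97) for IL2RB and 0.808 (0.258 to 1.94) for TNFRSF1B, on 5 UMIs each at Post-IS. In T cells without NKG7 it was 0.559 (0.111 to 1.76) and 0.491 (0.155 to 1.20), on 3 and 5 UMIs. All 4 intervals include 1. TNFRSF1A held 0 UMIs at Post-IS in T cells with NKG7, which allows up to 124 CPM, and 45 UMIs, or 93.6 CPM, at Pre-IS. Its ratio in T cells without NKG7 was 1.04 (0.265 to 2.97). STAT5A differed here: 1 of its 2 Post-IS UMIs lay in each kind, and in T cells without NKG7 the ratio was 0.137 (0.00341 to 0.798). The 4 wpt level of JAK3 over Pre-IS was 1.71-fold (1.19 to 2.51) in T cells without NKG7 and 1.31-fold (0.787 to 2.25) in those with it.

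Other genes of the pathways were read from 5 lists. IL2 itself held 3, 0, 1 and 1 UMIs in T cells at Pre-IS, Post-IS, 4 wpt and 8 wpt and 0 in NK cells, B cells and monocytes. IL15, which uses the same beta and gamma chains, was found in CD14+ monocytes with 6, 4, 24 and 8 UMIs, and IL7R, the receptor chain for interleukin-7, stood at 1117, 1510, 1102 and 874 CPM in T cells. Among feedback and target genes of STAT5 in T cells, 3 of 11 measured were higher and 1 lower for Post-IS over Pre-IS, with a median log2 ratio of 0.31, where 14.4% of all genes were higher and 25.4% lower. BCL2, which protects from cell death, stood at 111 CPM at Post-IS and 32.6 at Pre-IS, 3.42-fold higher (1.80 to 6.17). SOCS2, a feedback inhibitor, stood at 111 CPM at Post-IS and 43.7 at Pre-IS, 2.55-fold higher (1.37 to 4.49). The remaining higher gene and the lower gene are not reported here. CISH, the best known STAT5 feedback gene, stood at 138.5, 118, 132 and 182 CPM over the 4 libraries.

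In the list of other JAK-STAT genes, 3 of 14 were higher and 0 lower in T cells for 4 wpt over Pre-IS, where 13.3% and 7.15% of all genes were. For 8 wpt over Pre-IS it was again 3 of 14 and 0, against 9.08% and 5.52%. PTPN11, a phosphatase of cytokine receptors, stood at 49.2 CPM at 4 wpt, 54.2 at 8 wpt and 31.1 at Pre-IS, 1.58-fold (1.12 to 2.28) and 1.74-fold (1.22 to 2.54) higher at 4 wpt and 8 wpt. In MS4A7+ monocytes, 8 of 12 of these genes were higher and 1 lower for 4 wpt over Pre-IS, with a median log2 ratio of 0.75 against -0.02 for all genes, of which 22.4% were higher and 14.3% lower. GRB2, an adaptor, stood there at 403 CPM at 4 wpt and 220 at Pre-IS, 1.83-fold higher (1.18 to 2.99), and JAK2 was 1.87-fold higher (1.03 to 3.74). The monocyte markers summed to 2589 CPM in that class at Pre-IS, 1588 at 4 wpt and 3179 at 8 wpt, and the T cell markers to 70.0, 18.9 and 117 CPM; their part in the result was not tested. Of the 9 receptor and signalling genes, 5 were measured for 4 wpt over Pre-IS and 1 was higher, a share near the 22.4% of all genes. It was IL2RG, on 20 UMIs at 4 wpt and 1 at Pre-IS, at 4.197-fold with an interval (0.671 to 174) that included 1. For 8 wpt over 4 wpt, 7 of 13 of the list were lower, with a median of -0.53 against -0.11 for all genes, of which 27.7% were lower. The counts of this list for 4 wpt over Pre-IS and for 8 wpt over 4 wpt share the 4 wpt library. That library held 476727 UMIs in this class, against 100047 at Pre-IS and 145638 at 8 wpt. A gene could thus meet the minimum of 20 UMIs mainly through 4 wpt.

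Among TNF ligands, adaptors and NF-kB genes in T cells, 2 of 24 measured were higher and 7 lower for Post-IS over Pre-IS, with a median log2 ratio of 0.03. Among all genes measured there 14.4% were higher and 25.4% lower, so the count of lower genes was near the background. BIRC3, an inhibitor of cell death that TNF receptors recruit, stood at 125 CPM at Post-IS and 53.3 at Pre-IS, 2.35-fold higher (1.32 to 3.98). IKBKG, the scaffold of the kinase complex that frees NF-kB, stood at 48.7 CPM at Post-IS and 138 at Pre-IS, 2.83-fold lower (1.35 to 7.13), and RELA, an NF-kB subunit, was 2.98-fold lower (1.13 to 11.1). In CD14+ monocytes, 3 of 19 were higher and 4 lower for Post-IS over Pre-IS, where 16.6% and 13% of all genes were. The count of higher genes was thus near the background. The genes named next are from the higher ones only, and the 4 lower genes are not reported here. TNFAIP3, a brake on NF-kB, stood at 58.0 CPM at Post-IS and 14.6 at Pre-IS, 3.97-fold higher (1.75 to 10.2), and NFKBIA, the inhibitor of NF-kB, was 1.82-fold higher (1.35 to 2.45).

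TNF, the ligand, stood highest in MS4A7+ monocytes among the classes of at least 50 cells. It stood there at 100 CPM at Pre-IS, 14.5 at Post-IS, 176 at 4 wpt and 34.3 at 8 wpt, on 10, 2, 84 and 5 UMIs. The 4 wpt value was 12.2-fold above Post-IS (3.26 to 102), and 8 wpt was 5.13-fold lower than 4 wpt (2.11 to 16.2). TNFRSF1B was also lower at 8 wpt than at 4 wpt in this class, but at Post-IS, where TNF was lowest, it stood highest at 885 CPM. Of the other TNF receptor family genes, 0 of 3 were apart in T cells for Post-IS over Pre-IS, 0 of 4 for 4 wpt over Pre-IS and 0 of 4 for 8 wpt over Pre-IS, where 39.8%, 20.5% and 14.6% of all genes were apart. With so few genes measured these counts say little.

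Likeness of pattern was taken as Pearson's r of log2(CPM + 10) over 20 class and library sums, among 7016 genes, as a description with no test, since these sums share libraries, depths and labels. IL2RB was most like KIR3DH, an NK receptor (r = 0.990), SLA2 (0.987) and KLRB1 (0.981), another NK receptor. IL2RG was most like ARHGDIB (0.966), SLAMF6 (0.952) and GPR174 (0.947), and JAK3 like CDC25B (0.957), TBC1D10B (0.95) and STMN1 (0.949). TNFRSF1A and TNFRSF1B shared ARRB2 as the most like gene (0.959 and 0.945). With an offset of 50 CPM the most like genes were RNF149 for TNFRSF1A (0.960) and LAMP1 for TNFRSF1B (0.958). At 10 CPM, their r with each other was 0.931. IL2RG and JAK3, whose proteins bind each other, had r = 0.918, while STAT5A and STAT5B had r = 0.00. JAK1, STAT5A and STAT5B had the lowest best values, at 0.906 with OPLAH, 0.855 with CDK11B and 0.794 with OTUD5.

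The classes with few cells are given as counts. Cells labelled proliferating NK/T (8, 2, 41 and 30 at Pre-IS, Post-IS, 4 wpt and 8 wpt) held IL2RB at 176 CPM on 56 UMIs at 4 wpt and 114 CPM on 16 UMIs at 8 wpt, and IL2RA on 1 UMI in each of 3 libraries. Cells with the authors' label "Dentritic cell" (30, 4, 23 and 29) held no UMI of IL2RA or IL2RB, and TNFRSF1B at 44.2, 0, 55.6 and 41.0 CPM. The CD14+ monocytes of Pre-IS, 4 wpt and 8 wpt stood above that, at 345, 320 and 288 CPM. The 0 at Post-IS rests on 4 cells and allows up to 249 CPM.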

How the data were processed

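For each library the authors deposited raw UMI counts per gene and cell and a cell type label per barcode, per the file headers. Per the submitters' processing notes, Seurat 3.2.3 and Cell Ranger 3.1.0 were used, with the genome Mmul_10. How cells and genes were chosen for deposit is not given in the sources used here. UMIs were summed per label and library and divided by the class total (CPM), with exact Poisson intervals; shares of cells have Clopper-Pearson intervals and ratios exact conditional binomial ones, all 95%. A class was compared where each of the libraries held 50 or more of its cells, a gene was measured at 20 or more UMIs over both, and a list median uses an offset of 0.5 UMIs. A count of 0 allows up to 3 counts, per library. A list's named genes are those whose interval lies farthest from 1, up to 3 each way; CISH, IL2, IL15 and IL7R, the split by NKG7 and the ratios between classes were chosen after their values were seen. Of 2559 rows with an identifier alone, 400 took a symbol from the RefSeq gene table of T2T-MMU8v2.0. Some values of the lists are not reported here. The ratio step was tested on simulated data. Doublets were not called; cells with 2 or more markers of another lineage were left out as an alternative. Other alternatives were the scalings of edgeR 4.0.16 (TMM) and median of ratios, equal weight per cell, thinning, other totals and other minimums. The members and lists were chosen with earlier results of these data known. Python 3.11.15, numpy 2.4.6, pandas 2.3.3 and scipy 1.17.1 were used.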

Additional observations from a re-analysis of the deposited data

How the results depend on the processing

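Of 156 log2 ratios of a gene in a class, all stayed inside their counting interval under TMM, median-of-ratios scaling, equal weight per cell, totals that leave out immunoglobulin, hemoglobin, mitochondrial and ribosomal protein genes, and without cells holding markers of another lineage. These settings kept 31, 30, 31, 31 and 28 of 32 values at 1.5-fold or more. They put 3, 2, 14, 1 and 6 further values past it. Thinning to 1000 UMIs kept 26 of 31 and, with no minimum of thinned UMIs, put 25 further values past it; 18 of 155 ratios moved out of their interval and 1 changed sign, STAT5B in CD14+ monocytes for 8 wpt over Pre-IS, at -0.0108 against 0.66. The cause was not tested. The lower IL2RB and TNFRSF1B of Post-IS T cells stayed past 1.5-fold under each of these 6 settings. With at least 50 UMIs, the pairs apart were 5 for 4 wpt over Post-IS, 4 for 4 wpt over Pre-IS, 3 for 8 wpt over 4 wpt and 0 for 8 wpt over Pre-IS, where fewer pairs are measured; with no minimum they were 9 for 8 wpt over 4 wpt and 7 for 8 wpt over Pre-IS. Thinned cells, with at least 20 thinned UMIs, gave 5 for 4 wpt over Pre-IS, 4 for 8 wpt over Pre-IS, 7 for 4 wpt over Post-IS and 5 for each of the others, equal weight per cell gave 7 for 8 wpt over Pre-IS, and leaving out cells with other markers gave 0 there. TMM shifted all genes of MS4A7+ monocytes by up to 0.23 (log2, 8 wpt over Pre-IS), and median-of-ratios scaling shifted Post-IS T cell comparisons by -0.14 and -0.16. With an offset of 50 CPM, IL2RG, JAK3 and TNFRSF1A kept 1 of their 3 most like genes, and ARRB2 was no longer among those of TNFRSF1B. No paired analysis was possible because each group is 1 library. Depth limits IL2RA, STAT5A and TNFRSF1A most at Post-IS, where 3 counts in T cells stand for 20.9 CPM.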
